A study of Mus musculus with 2 samples.

Results

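Homeodomain transcription factors bind DNA through a shared fold of helices, and combinations of them mark neuron types during brain development and afterwards. A set of 33 such genes was taken by symbol from the list of 31054 genes in the deposited matrices, and all 33 were found. The 33 genes were described in neurons, taken as cells with at least 10 UMIs (unique molecular identifiers, each counting 1 captured transcript) of the synaptic genes Snap25 and Syt1 together and at least 2000 genes detected. The study asked which neurons of the preoptic area, the anterior hypothalamic area known for sleep-promoting neurons, are active in the sleep that follows sleep loss. It made 2 libraries by Act-seq, a dissociation with transcription blocked, and 10x Genomics chemistry. The SD library came from C57BL/6J mice sleep deprived for 6 h, and the SD+RS library from C57BL/6J mice sleep deprived for 6 h and then left 2 h to recover sleep. All mice were wild type and 9 to 10 weeks old, and each library pooled males and females. The sources used here do not give how many mice were pooled. A group of undisturbed mice was not analysed here.

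Homeodomain genes work by family. Dlx genes drive GABAergic development in the forebrain, LIM genes (Lhx and Isl1) act with the cofactor Ldb1, Meis and Pbx proteins are cofactors of the TALE class, and Pou3f and Onecut proteins carry a second DNA-binding domain beside the homeodomain. In the hypothalamus Otp and Pou3f2 are needed for neurosecretory neurons that make oxytocin, vasopressin or releasing hormones, Nkx2-1 and Six3 pattern the early tissue, and Six6 and Vax1 are needed for neurons that make gonadotropin-releasing hormone.

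After filtering and removal of called doublets, 3733 neurons of 10262 barcodes remained for SD and 4062 of 8106 for SD+RS, with median depths of 22174 and 21684 UMIs. Of neuron markers that the rule did not use, Rbfox3, Tubb3 and Elavl4 had UMIs in 84.1% to 98.9% of these neurons. Of the markers of other cells, the myelin gene Mag was found in 17.6% and 14.9% of neurons, and the defining markers of microglia and endothelial cells in 0.148% to 3.16%. The libraries shared 23 barcodes, 6 of them among the neurons. They differed in their mix of sexes: neurons with Xist UMIs and none of Y-linked genes (Xist-only) were 39.1% of the sex-called SD neurons and 77.9% of the sex-called SD+RS neurons. Each group was 1 library, so there was no spread between mice to set a difference against and no test was made. Every interval is a 95% interval for counting error only.

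Nearly every neuron carried several of the 33 genes. The median neuron had UMIs of 5 of them in both libraries (quartiles 4 to 7), and 44 SD neurons (1.18%) and 47 SD+RS neurons (1.16%) had none. In each library 19 of the 33 genes were found in at least 10% of neurons. The same count over all genes was not made, so these numbers cannot be called particular to the set. Counted at a common depth of 10000 UMIs per neuron, as the share expected over all draws and without the 197 and 96 shallower neurons, 15 genes reached 10% in both libraries. With at least 2 UMIs per neuron, 13 did. In the pairs of values below, the SD library comes first, a share is that of neurons with a UMI, and CPM (counts per 1e6) is a gene's sum of UMIs over all neurons divided by the sum of all their UMIs and scaled by 1e6.

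The 4 Dlx genes were among the 6 genes found in the most neurons. Dlx1 had a UMI in 42.3% (40.7 to 43.9) of SD neurons and 43.7% (42.2 to 45.2) of SD+RS neurons, at 50.4 and 50.8 CPM. Its neighbour Dlx2 was found in 28.6% (27.2 to 30.1) of SD neurons and 31.3% (29.9 to 32.7) of SD+RS neurons, at 19.1 and 20.7 CPM. These genes act early in GABAergic development, and their UMIs were still present in these adult neurons. Dlx5 was found in 34.1% and 32.6% of neurons (23.1 and 21.9 CPM), and Dlx6 in 34.6% and 36.7% of neurons (24.5 and 26.5 CPM). Over the 4 genes a holding neuron had on average between 1.58 (Dlx2) and 2.82 (Dlx1) UMIs in the SD library, so that these calls rested on few UMIs each.

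The LIM genes ran from common to rare. Isl1, which is known from cholinergic and arcuate neurons, had a UMI in 33.8% (32.3 to 35.3) of SD neurons and 31.4% (29.9 to 32.8) of SD+RS neurons, at 57.9 and 53.6 CPM. Lhx6, which specifies interneurons of the medial ganglionic eminence, was found in 26.0% (24.6 to 27.4) of SD neurons and 25.2% (23.9 to 26.6) of SD+RS neurons, at 33.3 and 34.1 CPM. Lhx8, needed for cholinergic neurons of the basal forebrain, was found in 23.6% (22.2 to 25) of SD neurons and 20.4% (19.2 to 21.7) of SD+RS neurons, at 56.9 and 52.8 CPM. A holding SD neuron had on average 3.03 UMIs of Lhx6, 5.71 of Lhx8 and 4.06 of Isl1, so that these calls rested on more than single UMIs. Lhx5, which acts with its close relative Lhx1 in the early forebrain, was found in 15.2% and 15.3% of neurons (9.50 and 9.45 CPM). Lhx2, a regulator of cortical and eye development, was found in 9.88% and 9.03% of neurons (9.76 and 8.03 CPM), and its relative Lhx9 in 8.38% and 8.52% of neurons (7.34 and 7.31 CPM). Lhx1, needed for the coupling of suprachiasmatic clock neurons, was found in 4.50% and 3.79% of neurons (3.31 and 3.46 CPM).

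Genes of early hypothalamic patterning were also widespread. Nkx2-1, which sets ventral identity in the hypothalamus and the medial ganglionic eminence, was found in 28.1% (26.7 to 29.6) of SD neurons and 29.2% (27.8 to 30.6) of SD+RS neurons, at 35.3 and 36.2 CPM. Six3, which acts in the most anterior forebrain, was found in 22.3% (20.9 to 23.6) of SD neurons and 18.0% (16.8 to 19.2) of SD+RS neurons, at 57.3 and 46.9 CPM. Hmx2 and Hmx3, a pair of neighbouring genes needed for hypothalamic neurons that make growth hormone-releasing hormone, were found in 21.7% and 23.7% of neurons (23.7 and 24.0 CPM) and in 15.5% and 18.5% of neurons (11.1 and 13.8 CPM), respectively. In contrast, Six6 was found in only 31 and 25 neurons (0.830% and 0.615%, 2.32 and 1.84 CPM), with up to 35 UMIs in an SD neuron. Vax1, which acts in the optic stalk and the ventral forebrain, was found in 2.12% and 1.77% of neurons (0.974 and 0.810 CPM). Otp, the regulator of neurosecretory neurons, was found in 8.20% (7.34 to 9.12) of SD neurons and 6.84% (6.09 to 7.66) of SD+RS neurons, at 28.5 and 28.0 CPM, with a mean of 8.23 UMIs per holding SD neuron. Nkx2-2 was close to absent from neurons, with 12 and 9 UMIs in 11 and 6 neurons (0.295% and 0.148%, 0.136 and 0.0946 CPM), and it alone missed the minimum of 20 UMIs per library used for ratios.

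Among the cofactors and the POU and cut families, shares differed widely between close relatives. The TALE cofactor Pbx3 was found in 39.5% (38.0 to 41.1) of SD neurons and 38.1% (36.6 to 39.6) of SD+RS neurons, at 45.8 and 43.9 CPM. Meis2, another TALE cofactor, was found in 9.75% (8.82 to 10.7) of SD neurons and 7.14% (6.37 to 7.97) of SD+RS neurons and reached 8.06 UMIs per holding SD neuron (33.2 and 23.7 CPM), while Meis1 was found in 6.08% and 5.64% of neurons (4.45 and 4.30 CPM). The POU genes Pou3f2, Pou3f3 and Pou3f1, intronless regulators of neuronal differentiation, were found in 23.1% and 24.5% of neurons (31.6 and 32.2 CPM), in 15.3% and 12.7% of neurons (12.4 and 10.0 CPM) and in 14.7% and 15.6% of neurons (22.6 and 26.9 CPM). Onecut2 was found in 21.3% and 19.1% of neurons (24.8 and 21.6 CPM), Onecut3 in 6.16% and 5.07% of neurons (5.07 and 3.61 CPM), and Onecut1 in 23 and 30 neurons (0.616% and 0.739%, 0.272 and 0.326 CPM). Thus Onecut2 was the common form of its family. Satb1, a chromatin organiser with a homeodomain, was found in 23.9% and 22.4% of neurons (23.8 and 21.5 CPM), and Zeb2, a zinc finger repressor with a homeodomain-like stretch, in 13.0% and 11.2% of neurons (14.6 and 13.8 CPM). Gbx2, known from the boundary of midbrain and hindbrain and from the thalamus, was found in 7.53% and 7.07% of neurons (6.43 and 6.48 CPM), its relative Gbx1 in 2.63% and 3.20% of neurons (2.50 and 3.13 CPM), and Barhl2, a regulator of diencephalic development, in 2.44% and 2.29% of neurons (2.00 and 2.41 CPM).

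**Figure D1:**
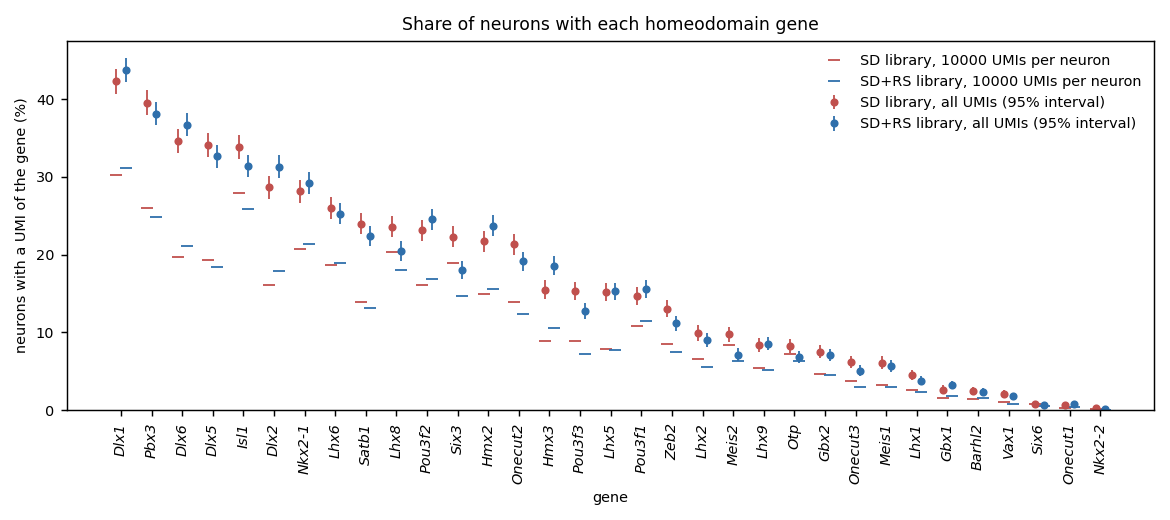
Share of neurons (%) with a UMI of each homeodomain gene in the SD (red) and SD+RS (blue) libraries, ordered by the SD share. Points with bars are all UMIs with the 95% interval, and dashes are the share expected at 10000 UMIs per neuron. Dlx1 was highest at 42.3% and 43.7%, and Nkx2-2 lowest at 0.295% and 0.148%.

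In glia and vascular cells many of these genes were rare, while others were found more often than in neurons. They were taken by marker genes and at most 2 Snap25 and Syt1 UMIs, and every cell was compared at 2000 UMIs, since their median depths ran from 3151 UMIs (SD+RS astrocytes) to 7047 (SD+RS oligodendrocytes) against 22174 and 21684 in neurons. In astrocytes Dlx1 was expected in 0.768% and 0.616% of cells against 8.74% and 9.25% of neurons, Isl1 in 0.514% and 0.183% against 9.82% and 9.32%, and Otp in 0.642% and 0.194% against 3.53% and 3.27%. For these 3 genes the neuron share was thus above that of cells that should lack them. Pou3f2 and Pou3f3, in contrast, were expected in 35.6% and 31.4% and in 29.5% and 32.8% of astrocytes, against 4.87% and 5.08% and 2.32% and 1.79% of neurons. Six3 and Nkx2-1 were also in astrocytes, at 17.3% and 19.6% and at 9.81% and 12.7%, as were Meis1 at 9.77% and 9.15%, Meis2 at 8.44% and 9.79%, Satb1 at 6.64% and 6.16% and Vax1 at 1.23% and 1.70%. At this depth the neuron shares were 8.81% and 7.2% for Six3, 6.58% and 6.74% for Nkx2-1, 0.836% and 0.755% for Meis1, 4.72% and 3.40% for Meis2, 4.03% and 3.57% for Satb1 and 0.209% and 0.192% for Vax1. Pou3f1 was expected in 64.8% and 53.3% of oligodendrocyte precursors and 44.8% and 50.7% of oligodendrocytes, against 3.74% and 4.26% of neurons. Zeb2 was expected in 54.9% and 59.7% of oligodendrocytes and 36.2% and 37.6% of microglia, against 2.52% and 2.31% of neurons. Nkx2-2, known for its role in oligodendrocyte precursors, was expected in 21.0% and 25.1% of them, against 0.0264% and 0.0149% of neurons. For these genes a share of neurons with a UMI can hold RNA of other cells, and that part was not tested.

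Split by transmitter, the genes divided between the classes. Neurons were called GABAergic from Slc32a1, the vesicular GABA transporter, and glutamatergic from the vesicular glutamate transporters Slc17a6, Slc17a7 and Slc17a8, with at least 2 UMIs and over 3 times the other side. This gave 2272 and 2460 GABAergic and 937 and 1039 glutamatergic neurons, with 524 and 563 in neither class, and median depths of 22638.5 and 22131 UMIs against 23236 and 22745. GABAergic neurons held a median of 6 of the 33 genes and glutamatergic neurons a median of 4, in both libraries. Of the 32 genes tested, 13 were at least 2-fold higher in GABAergic neurons in both libraries, while 1.77% of all genes tested were. Another 8 were at least 2-fold higher in glutamatergic neurons in both libraries, where the share of all genes was 2.26%.

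The Dlx genes, Lhx6, Lhx8 and the Gbx genes stood furthest to the GABA side. Dlx1 was at 1.40 against 69.9 CPM (SD) and 1.67 against 70.3 CPM (SD+RS) (glutamatergic against GABAergic neurons), a log2 ratio of −5.64 (−6.19 to −5.15) and −5.40 (−5.87 to −4.97). Dlx2, Dlx5 and Dlx6 had log2 ratios of −5.69 and −5.60, −4.84 and −4.57, and −4.67 and −5.37. All 4 Dlx genes were thus over 4 log2 units higher in GABAergic neurons in each library. Lhx6 was at 1.31 against 48.5 CPM (SD) and 1.24 against 49.2 CPM (SD+RS), a log2 ratio of −5.21 (−5.77 to −4.70) and −5.31 (−5.86 to −4.81). Lhx8 had log2 ratios of −4.65 and −4.08, Gbx2 −5.17 and −5.60, and Gbx1 −4.07 and −4.25 from 5 and 6 UMIs in glutamatergic neurons. Pou3f1 (−2.20 and −3.24), Satb1 (−2.13 and −1.82), Isl1 (−1.65 and −1.28), Pbx3 (−1.41 and −1.57) and Zeb2 (−1.10 and −1.50) leaned the same way by smaller ratios and were found in both classes. Isl1, for example, had a UMI in 16.1% of glutamatergic and 39.7% of GABAergic SD neurons.

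On the glutamate side stood Otp, Barhl2 and 4 LIM genes. Lhx9 was at 24.7 against 0.166 CPM (SD) and 24.5 against 0.173 CPM (SD+RS), a log2 ratio of 7.22 (6.28 to 8.35) and 7.15 (6.26 to 8.22). Otp was at 88.7 against 0.811 CPM (SD) and 90.3 against 0.553 CPM (SD+RS), a log2 ratio of 6.77 (6.34 to 7.24) and 7.35 (6.85 to 7.90). Barhl2 had log2 ratios of 6.56 and 6.53 from 4 and 5 UMIs in GABAergic neurons, Lhx2 4.63 and 5.16, and Lhx1 4.35 and 4.27. For Lhx9 and Otp the GABAergic level was therefore under 1 CPM in both libraries. Onecut3 (2.59 and 2.54), Lhx5 (2.26 and 1.76) and Six6 (1.98 and 2.54) had smaller ratios. The Six6 ratio rested on 0.640% of glutamatergic and 0.792% of GABAergic SD neurons, so that its level and its share of cells pointed in different directions.

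The other 11 genes passed the 2-fold mark in neither direction in both libraries. Hmx2 (−0.24 and 0.16), Hmx3 (−0.011 and 0.15) and Meis1 (−0.14 and −0.23) were near equal in the classes. Nkx2-1 (−0.67 and −0.15), Six3 (−0.82 and −0.70) and Pou3f3 (−1.15 and −0.99) were lower in glutamatergic neurons but short of the mark in at least 1 library, and Meis2 (0.75 and 0.95), Onecut2 (1.19 and 0.98), Onecut1 (1.90 and 0.87) and Vax1 (0.29 and 0.71) were higher. Pou3f2 was at 0.49 and −0.076, with opposite signs in the libraries. Pou3f3 and Onecut2 lay just outside the 2-fold mark and Zeb2 just inside it. Across the 32 genes the ratios of the libraries had a Pearson correlation of 0.993, as a description over genes that share the same cells and class calls.

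**Figure D2:**
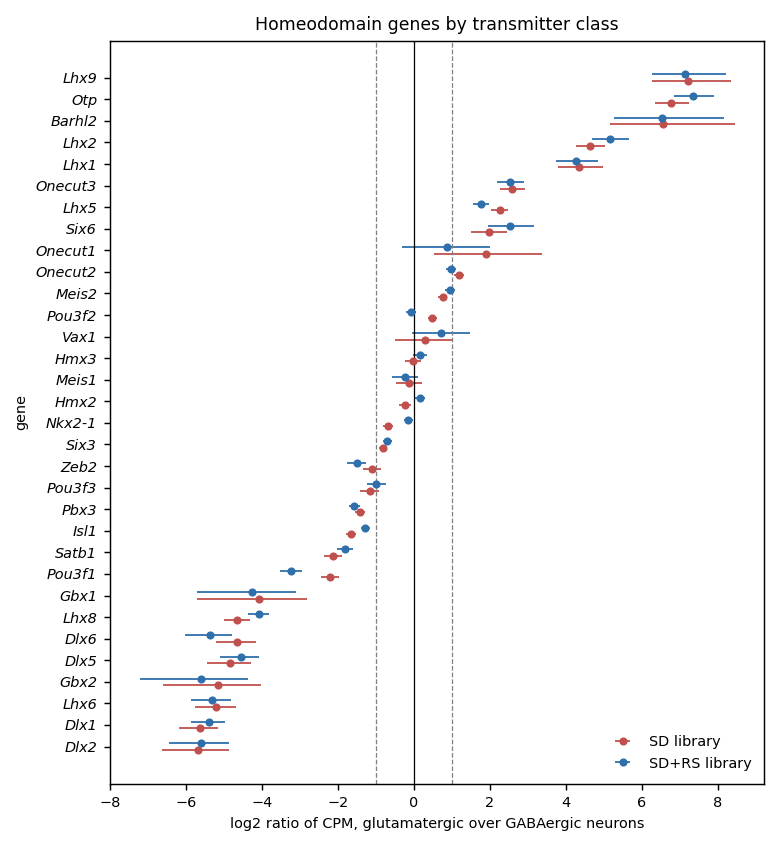
Log2 ratio of CPM in glutamatergic over GABAergic neurons for the 32 genes tested, in the SD (red) and SD+RS (blue) libraries with 95% intervals for counting error, and with dashed lines at 2-fold. In the SD library Lhx9 and Otp lie farthest to the right and Dlx2 and Dlx1 farthest to the left.

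Pairs found in the same neurons were read next. For each gene the neurons of a library were split by the presence of a UMI, and the CPM of every other gene was set as a ratio of holding over other neurons. Of 1024 ordered pairs tested among the 33 genes, 150 were at least 2-fold higher in both libraries, while 1.11% of all genes over the same splits were. Lower by at least 2-fold in both libraries were 322 ordered pairs, against 1.78% of all genes. Counted without order, 61 pairs were higher and 137 lower in both orders. Of the 61, 15 joined genes of the glutamate side, 15 joined genes of the GABA side, and 2 joined a gene of each side, Isl1 with Six6 and Dlx5 with Six6. Of the 137, 59 joined a GABA-side with a glutamate-side gene. Neurons that held a gene were often deeper: the median was 24583.5 UMIs with Pbx3 and 20838 without it in the SD library, so counts of shared neurons at 10000 UMIs are also given.

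The pairs with the highest ratios were chosen in the SD library and read again in the SD+RS library. Each log2 value that follows is the mean of the ratios of level in both orders, SD first. Six3 and Six6, relatives of the fly gene sine oculis, had 5.43 and 3.75. A Six3 UMI was found in 93.5% and 76.0% of the Six6 neurons, which numbered 31 and 25. Onecut2 and Onecut3 had 4.03 and 3.70, and Onecut2 was found in 79.1% and 76.7% of the Onecut3 neurons. Gbx2 and Zeb2 had 3.85 and 4.0: Zeb2 was found in 74.0% of SD neurons with Gbx2 against 8.05% of those without it (SD+RS: 73.9% against 6.38%). Hmx2 and Hmx3 had 3.49 and 3.26, with Hmx2 in 81.3% and 79.7% of the Hmx3 neurons. In each of these pairs most neurons with the rarer gene also held the other.

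A group of pairs linked genes of the GABA side with each other and with Nkx2-1 and Pou3f3, which were on neither side. Lhx6 and Gbx1 had 3.54 and 3.57, and Lhx6 was found in 87.8% and 82.3% of Gbx1 neurons. Lhx8 and Gbx1 had 2.88 and 3.40, Pou3f1 and Gbx1 2.83 and 2.66, and Pou3f3 and Gbx1 2.45 and 2.74. Gbx2 was joined with Lhx6 (2.66 and 2.66), Lhx8 (2.49 and 2.95) and Nkx2-1 (2.33 and 2.25). Lhx8 and Nkx2-1 had 2.40 and 2.30: Nkx2-1 was found in 64.9% of SD neurons with Lhx8 against 16.8% of those without it (SD+RS: 68.2% against 19.2%). Nkx2-1 acts upstream of Lhx6 and Lhx8 in the medial ganglionic eminence, and Lhx6 and Lhx8 themselves had 2.18 and 2.41, with 523 and 522 neurons holding both. Gbx1 had 7 and Gbx2 had 8 partners at least 2-fold higher in both orders, among the most of the 33 genes beside Lhx1 with 9.

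Another group linked glutamate-side genes. Lhx1 and Lhx9 had 3.09 and 2.78, and Lhx9 was found in 44.0% of SD neurons with Lhx1 against 6.70% of those without it (SD+RS: 43.5% against 7.14%). Lhx2 and Lhx9 had 2.55 and 2.46, and Lhx2 and Otp 2.69 and 2.97. Lhx2 thus went with both Lhx9 and Otp, which themselves were rarely found together. All 15 of the highest pairs (Lhx6 with Lhx8 was not among them) were at least 2-fold higher in the SD+RS library too. At 10000 UMIs per neuron, the number of neurons expected to hold both genes of a pair was still above that expected from their separate shares, with log2 ratios of 2.25 and 2.21 for Six3 and Six6, 2.69 and 2.82 for Gbx2 and Zeb2, 1.93 and 1.81 for Hmx2 and Hmx3, and 2.34 and 2.31 for Lhx1 and Lhx9. Six6 had 6 such partners (Six3, Isl1, Dlx5, Meis1, Vax1 and Lhx1), in pairs that rested on 3 (Vax1 in the SD+RS library) to 29 (Six3 in the SD library) neurons.

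The 8 pairs with the lowest ratios in the SD library were also read in both libraries. Lhx9 and Otp, both of the glutamate side, had −4.35 and −3.56, and 4 and 6 neurons held both of 313 and 346 with Lhx9 and 306 and 278 with Otp. Otp and Meis2 had −5.01 and −1.90, and Lhx1 and Hmx3 −4.80 and −3.68. Hmx3 and Gbx2 had −4.37 and −3.66, and Hmx2 and Gbx1 −4.32 and −2.48. Hmx2, Hmx3 and Meis2 are genes of neither transmitter side. Lhx6 and Onecut3 (−4.58 and −3.79), Dlx5 and Barhl2 (−4.97 and −2.59) and Lhx5 and Gbx1 (−5.18 and −2.46) each joined a GABA-side and a glutamate-side gene. All 8 were at least 2-fold lower in the SD+RS library too, and in each the ratio there was nearer to 0 than in the SD library that chose it. They rested on 1 (Lhx5 and Gbx1) to 5 (Lhx6 and Onecut3) shared SD neurons and 4 to 9 shared SD+RS neurons. The counting intervals of the lowest counts were wide: with against without Lhx5, the SD log2 ratio of Gbx1 was −5.58 (−10.89 to −3.09) from 1 UMI. Hmx3 had −4.67 (−7.72 to −2.81) with Lhx1 from 2 UMIs, Barhl2 −5.68 (−8.74 to −3.81) with Dlx5 from 2, and Gbx1 −4.54 (−6.83 to −2.97) with Hmx2 from 3.

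**Figure D3:**
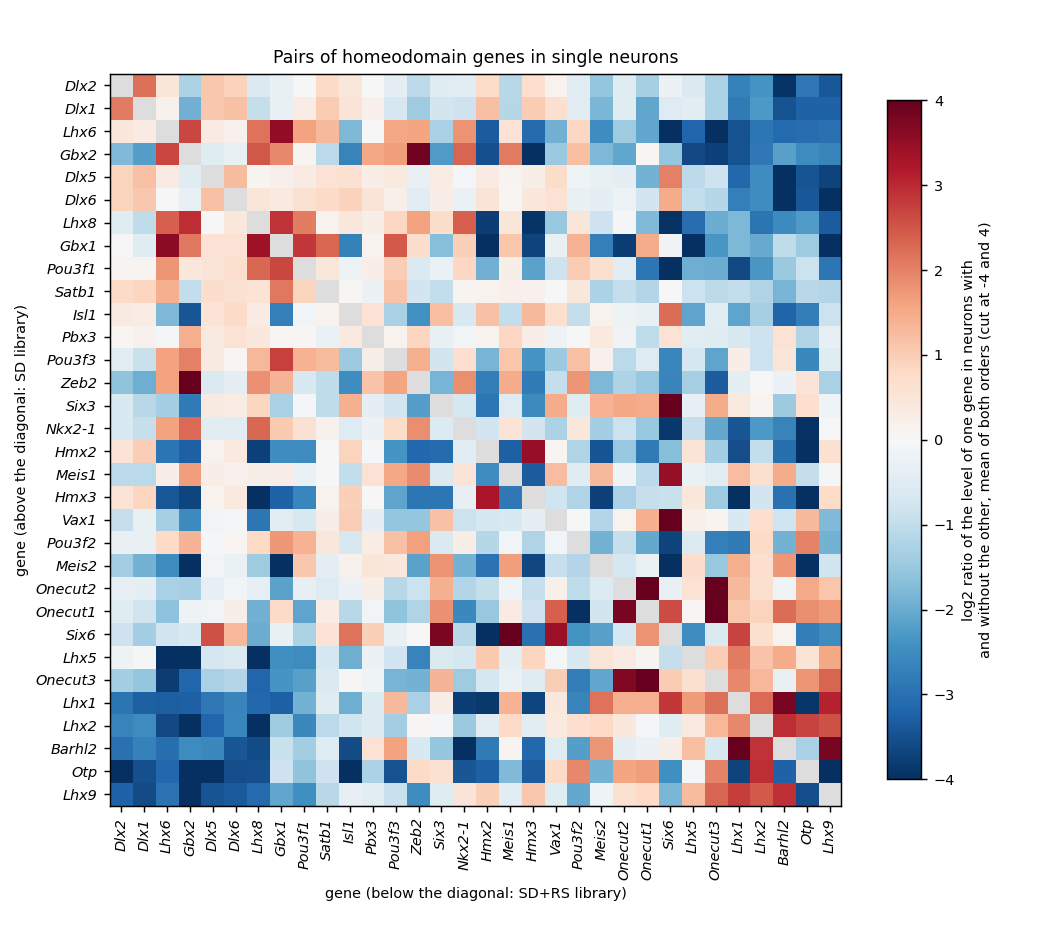
Log2 ratio of the level of a gene in neurons with over without another gene, as the mean of both orders, for 32 genes ordered by transmitter ratio. SD values stand above the diagonal and SD+RS values below it, with colours limited to 4 in each direction. The blocks of red at either end are pairs within the GABA and the glutamate side, and the blue corners are pairs across them.

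The same splits were made within each transmitter class. Among GABAergic neurons alone, 100 of 928 ordered pairs were at least 2-fold higher in both libraries (against 0.818% of all genes) and 212 lower (against 1.31%). Among glutamatergic neurons alone, 134 of 896 were higher (against 0.897%) and 162 lower (against 1.58%). Hmx2 and Hmx3 went together in both classes, with 3.57 and 3.15 in GABAergic and 3.40 and 3.48 in glutamatergic neurons. Onecut2 and Onecut3 did so too, with 3.97 and 3.54 and 3.87 and 3.71. In GABAergic neurons Lhx6 and Gbx1 had 3.29 and 3.5, Gbx2 and Zeb2 3.87 and 3.87, and Lhx8 and Nkx2-1 2.34 and 2.52, close to their values in all neurons. The glutamate-side pairs had smaller ratios within their class: Lhx1 and Lhx9 had 1.34 and 1.0, Lhx2 and Otp 1.07 and 1.10, and Lhx2 and Lhx9 0.66 and 0.56, the last below 2-fold. Lhx9 and Otp had a lower ratio within it than over all neurons, at −6.05 and −5.53. In SD glutamatergic neurons 1.45% of those with Lhx9 held Otp, against 32.3% of those without Lhx9 (SD+RS: 1.60% against 30.6%).

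Within the set, 3 pairs are close neighbours on a chromosome, by the GENCODE vM21 annotation in mm10. Hmx3 (chr7:131542867-131544925) and Hmx2 (chr7:131548773-131558014) lie 3848 bases apart on the plus strand. Dlx1 (chr2:71528113-71533981, plus strand) and Dlx2 (chr2:71543408-71546754, minus strand) lie 9427 bases apart, and Dlx6 (chr6:6863334-6868568, plus strand) and Dlx5 (chr6:6877805-6882085, minus strand) 9237. Each of these pairs was found together in both libraries, at 3.49 and 3.26 for the Hmx pair, 2.19 and 2.09 for Dlx1 and Dlx2, and 1.26 and 1.16 for Dlx5 and Dlx6. Dlx1 and Dlx5, on different chromosomes, had 1.08 and 1.18. All these ratios are over all neurons, and each Dlx gene was on the GABA side. Ratios of the Dlx pairs within GABAergic neurons are not given here. Several of the 33 genes overlap another counted gene on the opposite strand, and the sources used here do not give how the counting used strand, so that their reads may not be told apart. The overlapping genes with the most UMIs in neurons were 4930447C04Rik over Six6 (1085 and 1229 UMIs), Dlx6os1 over Dlx6 (1094 and 1293) and Gm27199 over Lhx5 (947 and 1156), and Fgfr2 (312 and 258) overlaps Hmx2 and Hmx3.

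Promoters are shown for Lhx1 and Lhx9, a pair found together among glutamatergic neurons, because both hold the TALE cofactor motif. The 250 bases before a start were taken from RefSeq in GRCm38.p6 for 25 of the 33 genes (36 entries), and TGACAG, the letters that Meis proteins bind, was searched on both strands. It was found in 4 of the 36 (11.1%; Lhx1, Lhx9, Six3 and Six6), against 15.9% of 32851 promoters. The match is shown in capitals, as TGACAG or as its reverse complement CTGTCA, and it is a description of letters, not of binding. The Lhx1 window is chr11:84525535-84525784 on the minus strand, next to the start of the gene (chr11:84518284-84525535), and the Lhx9 window is chr1:138842445-138842694 on the minus strand, at an inner start of the gene (chr1:138825186-138848577).

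Lhx1: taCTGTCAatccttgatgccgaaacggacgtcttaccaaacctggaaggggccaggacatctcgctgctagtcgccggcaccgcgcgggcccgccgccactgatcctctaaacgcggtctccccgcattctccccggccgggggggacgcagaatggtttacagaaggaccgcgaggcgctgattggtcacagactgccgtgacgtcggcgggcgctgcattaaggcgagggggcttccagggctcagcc
Lhx9: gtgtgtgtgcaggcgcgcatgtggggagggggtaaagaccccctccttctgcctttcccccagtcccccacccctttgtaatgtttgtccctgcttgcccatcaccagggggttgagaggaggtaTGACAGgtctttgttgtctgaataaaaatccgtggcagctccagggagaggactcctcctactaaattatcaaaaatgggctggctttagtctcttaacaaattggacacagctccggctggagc

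The homeodomain core TAATTA was in 0 of the 36 windows and in 4.84% of all promoters, and the Onecut core ATCGAT in 0 and 0.728%. The octamer ATGCAAAT, of the POU family, was in 0 and 1.60%, and the Nkx2 core CAAGTG in 5.56% (Nkx2-2 and Satb1) and 11.6%. The windows of the set had a median GC content of 58.8%, against 52.4% over all promoters. Of the Meis genes, Meis1 went with Lhx1 at 1.25 and 1.39, and Meis2 at 1.46 and 2.17. Neither was among the 5 genes at least 2-fold higher with Lhx9 in both orders and both libraries. A link between the letters and these pairs was not tested.

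Peptide genes were read with the same splits. Of 1056 links tested between the 33 genes and the 32 of 37 listed peptide genes with enough UMIs, 73 were at least 3-fold higher in both libraries in neurons with the homeodomain gene, while 0.444% of all genes over the same splits were. The links involved 28 of the 33 genes and 27 of the 32 peptides. Links were also judged by the share of neurons with at least 5 peptide UMIs, where a very rich cell counts no more than any other. Few cells can still carry a link by this measure. By it 59 links passed 3-fold (0.509% of all genes did) and 49 of them were among the 73.

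Otp went with neurosecretory peptides. Trh, the thyrotropin-releasing hormone gene, was at 1095 against 6.31 CPM (SD) and 1076 against 6.00 CPM (SD+RS) in neurons with against without Otp, a log2 ratio of 7.44 and 7.49. At least 5 Trh UMIs were found in 54.2% and 54.0% of Otp neurons and in 0.846% and 0.793% of the others. The Trh-rich Otp neurons numbered 166 and 150. Ghrh, the growth hormone-releasing hormone gene, had 3.45 and 4.30 (at least 5 UMIs in 15.4% and 15.8% of Otp neurons), and Adcyap1, which encodes PACAP, 2.24 and 1.94 (25.8% and 26.3%). Oxt, the oxytocin gene, was at 68918 against 38.4 CPM (SD) and 101142 against 27.0 CPM (SD+RS), a log2 ratio of 10.81 and 11.87, and Avp, the vasopressin gene, had 6.07 and 8.53. These levels rested on few very rich cells, since at least 5 Oxt UMIs were in 10.5% and 13.7% of Otp neurons (32 and 38 cells) and at least 5 Avp UMIs in 6.21% and 5.76% (19 and 16 cells). Pou3f2, also needed for these cells, had 9.38 and 10.12 for Oxt and 4.29 and 6.63 for Avp. Zeb2 had 6.35 and 10.29 for Oxt and 4.32 and 3.66 for Avp, and Lhx2 had 6.19 and 7.91 for Oxt and 3.35 and 4.18 for Avp.

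The Onecut genes shared the releasing hormones with Otp. Ghrh had log2 ratios of 3.82 and 3.93 with Onecut3 and 3.31 and 3.23 with Onecut2, and Trh had 2.91 and 3.47 with Onecut3 and 2.82 and 2.89 with Onecut2. At least 5 Ghrh UMIs were found in 21.7% and 16% of Onecut3 neurons and 1.28% and 1.19% of the others. The Hmx genes, known from neurons that make growth hormone-releasing hormone, went with other peptides here: Ghrh had −2.45 and −2.08 with Hmx2 and −2.01 and −2.52 with Hmx3. Gal, the galanin gene, was at 2790 against 483 CPM (SD) and 2122 against 376 CPM (SD+RS) with against without Hmx2, a log2 ratio of 2.53 and 2.50. At least 5 Gal UMIs were found in 62.0% and 58.0% of Hmx2 neurons and 13.9% and 14.5% of the others. Hmx3 had 2.07 and 2.19 for Gal, and both went with Vip (2.40 and 1.84 for Hmx2, 2.10 and 2.14 for Hmx3) and Prok2 (2.77 and 2.64 for Hmx2, 1.59 and 1.88 for Hmx3), peptides of suprachiasmatic neurons.

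Genes of the GABA side were linked with peptides too, some of which also had links with genes of neither side, as Gal and Vip with Hmx2 and Hmx3 above. Lhx6 went with Sst, the somatostatin gene, at 534 against 48.7 CPM (SD) and 688 against 51.8 CPM (SD+RS) (log2 3.46 and 3.73), and with Npy (2.67 and 3.61), Cort (2.89 and 4.51) and Cck (2.23 and 2.04). Only 6.5% and 8.78% of Lhx6 neurons had at least 5 Sst UMIs, against 2.71% and 2.60% of the others, so that by share of cells the Sst link was below 3-fold in the SD library. Dlx1 went with Vip (3.39 and 4.66), Tac2 (2.60 and 2.27) and Gal (2.15 and 2.18). Isl1 had 7 links, the most of the 33 genes, among them Cartpt at 597 against 154 CPM (SD) and 609 against 156 CPM (SD+RS) (1.95 and 1.96), Pnoc (1.60 and 1.63), Gal (1.87 and 1.69) and Calca (3.60 and 2.82). Gbx2 went with Penk at 708 against 107 CPM (SD) and 753 against 142 CPM (SD+RS) (2.72 and 2.41), with Crh (1.92 and 2.39) and with Nmu (2.70 and 3.48), and Zeb2, its partner, with Penk (2.75 and 1.85), Crh (1.98 and 1.96) and Nmu (2.14 and 3.26) too. Lhx8 was linked only with Nmu (2.97 and 3.47). Lhx9, of the glutamate side, was linked only with Adcyap1, at 147 against 26.7 CPM (SD) and 194 against 24.9 CPM (SD+RS) (2.47 and 2.96).

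Gnrh1, the gene of gonadotropin-releasing hormone, gave the highest ratio of all links tested. With Six6 it was at 16652 against 2.28 CPM (SD) and 19600 against 1.95 CPM (SD+RS), a log2 ratio of 12.83 and 13.30. At least 5 Gnrh1 UMIs were found in 19.4% and 28.0% of Six6 neurons, which is 6 and 7 cells. Meis1 (9.66 and 9.88), Six3 (8.40 and 9.02), Isl1 (7.65 and 8.19), Dlx5 (7.35 and 7.53), Pbx3 (7.10 and 7.09), Vax1 (6.32 and 4.62) and, with a smaller ratio, Dlx6 (3.07 and 2.08) were linked as well, with 2 (Vax1 in the SD+RS library) to 12 (Isl1 in the SD+RS library) Gnrh1-rich neurons each. All 15 of the highest links of the SD library, which were Gnrh1 with these genes other than Dlx6, Oxt with Otp, Pou3f2, Zeb2 and Lhx2, Avp with Otp and Zeb2, Trh with Otp and Calcb with Isl1, were at least 3-fold higher in the SD+RS library.

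**Figure D4:**
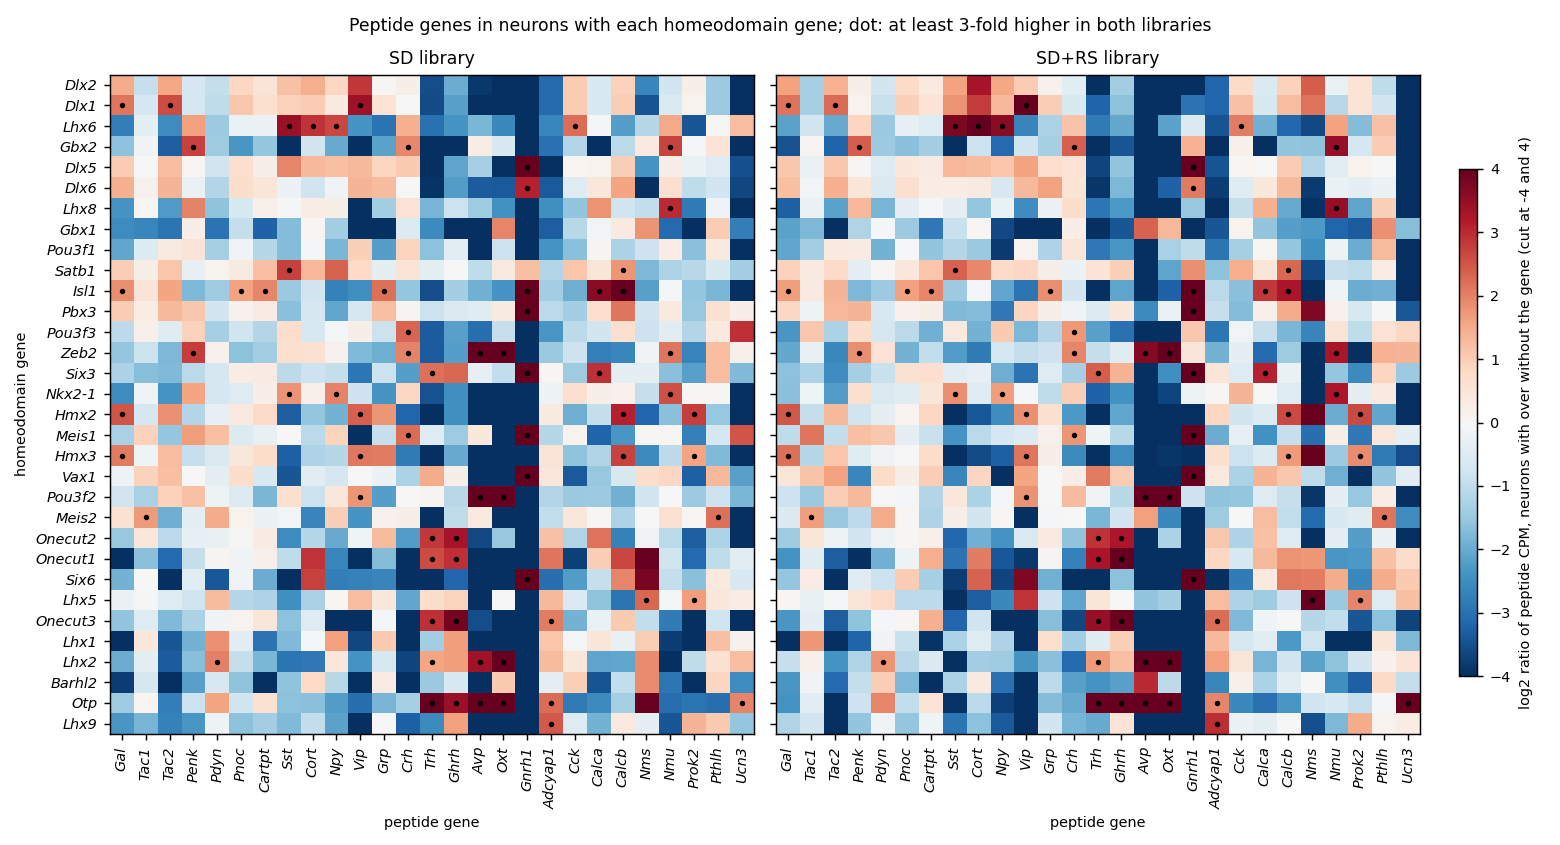
Log2 ratio of peptide CPM in neurons with over without each homeodomain gene, in the SD library (left) and the SD+RS library (right), with colours limited to 4 in each direction. Dots mark the peptide links that were at least 3-fold higher in both libraries, and the columns Trh, Ghrh, Avp and Oxt are marked in the row of Otp.

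Cholinergic and aminergic genes were read with the same split. Slc18a3, the vesicular acetylcholine transporter gene, was at 16 against 0.164 CPM (SD) and 28.8 against 0.0268 CPM (SD+RS) with against without Lhx8, a log2 ratio of 6.61 and 10.07. The SD+RS ratio had a wide interval of 8.21 to 13.12, since other neurons held almost no UMI. It had 4.17 and 5.61 with Isl1, 5.93 and 7.45 with Nkx2-1 and 6.85 and 7.77 with Six3. Cells with at least 5 Slc18a3 UMIs were few, 8 and 12 among Lhx8 neurons and 7 and 11 among Six3 neurons. Lhx8 and Isl1 are known from cholinergic neurons of the basal forebrain. Th, which encodes the dopamine-synthesis enzyme tyrosine hydroxylase, had 1.68 and 2.01 with Isl1, in 61 and 79 Isl1 neurons with at least 5 UMIs. Ddc, the next enzyme of that pathway, had 1.62 and 1.76 with Onecut2 and 1.93 and 2.03 with Onecut3. Slc17a8, a vesicular glutamate transporter gene, had 4.62 and 3.57 with Meis2 and 3.0 and 2.38 with Pou3f1, each in 8 to 11 neurons with at least 5 UMIs.

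Neurons were then clustered with the 33 genes left out, so that they had no direct part in the clusters. Genes closely tied to them were not all left out, so an indirect part remained and was not tested. Lhx1os was among the leading genes of cluster 10, where Lhx1 was on. Pantr1, which went with Pou3f3 (3.65 and 3.55), was among those of cluster 12. This gave 42 clusters, of which 37 had at least 50 cells and 32 had at least 50 in each library. A gene was called on in a cluster where at least 50% of the cells had a UMI and the CPM was at least 2 times that of all neurons. By that rule 27 of the 33 genes were on in at least 1 cluster, and the 37 clusters held 117 calls (over all genes, 0.594% of the gene and cluster combinations were called), with a median of 3 genes per cluster (0 to 8). No gene was on in 2 clusters, and this was counted as 1 of the 35 different combinations among the 37 clusters. Called in each library on its own over the 32 clusters, 107 and 106 calls were made and 94 were shared, 87.9% of the SD and 88.7% of the SD+RS calls. Over the same 32 clusters, the cluster with the highest level was the same in both libraries for 24 of the 33 genes. Over both libraries together, Six6, Vax1, Meis1, Dlx5, Onecut1 and Nkx2-2 were on in none of the 37 clusters, though Dlx5 was on in cluster 30 in the SD library alone and in cluster 6 in the SD+RS library alone. The combinations that follow are those over both libraries together.

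GABAergic clusters held the longest combinations. Cluster 23 (led by Sntb1, Gpr139 and Tac2; 90 and 76 neurons) had 8 genes on: Isl1 in 96.7% and 96.1% of its neurons and Dlx1 in 93.3% and 97.4%, with Pbx3, Satb1, Dlx6, Hmx2, Dlx2 and Hmx3. Cluster 17 (led by Bcl11b and Sox6; 89 and 108 neurons) had 7: Lhx6 in 95.5% and 93.5%, Gbx1 in 52.8% and 53.7%, and Satb1, Lhx8, Pou3f3, Pou3f2 and Pou3f1. It was the only cluster with Gbx1 on, and over both libraries together also the only one with Pou3f3 on, which in the SD library alone was on in clusters 3 and 12 as well. Cluster 9 (led by A730046J19Rik and Serpinb1b; 123 and 140 neurons) and cluster 28 (led by Nmu and Serpinb1b; 74 and 56 neurons) shared Zeb2, Nkx2-1, Lhx6, Lhx8 and Gbx2, with Zeb2 in 72.4% and 70.7% and in 95.9% and 92.9%. Cluster 33 (led by Ermn and Krt25; 51 and 56 neurons) had Lhx8 in 100% and 100%, Pou3f1 in 100% and 100% and Nkx2-1 in 94.1% and 92.9%, with Lhx6 and Pou3f2. Cluster 0, the largest (led by 1700003F12Rik and Cox6a2; 239 and 217 neurons), had Lhx8 in 99.6% and 98.6% and Isl1 in 90.8% and 90.8%, with Nkx2-1 and Six3. Lhx8 was thus on both with Lhx6 and, in cluster 0, with Isl1.

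In glutamatergic clusters the combinations held LIM genes, Otp and Hmx genes. Cluster 29 (led by C1ql1 and Opn5; 70 and 56 neurons) had Onecut2 in 98.6% and 98.2% and Lhx9 in 85.7% and 92.9%, with Onecut3, Six3, Lhx1 and Lhx5. Cluster 32 (led by Gng8 and C1ql1; 56 and 64 neurons) had Lhx9 in 85.7% and 68.8% and Barhl2 in 55.4% and 67.2%, with Lhx2 and Pbx3, and was the only cluster with Barhl2 on. Otp was on in 4 clusters, none of which had Lhx9 on: cluster 22 (led by Trh and Ebf1) with Six3 and Onecut2, where Otp was in 100% and 100%, cluster 20 (led by Sim1) with Pou3f2 and Lhx2, cluster 35 (led by Ghrh and Trh) with Onecut2 and Onecut3, and cluster 36 (led by Oxt and Avp) with Zeb2, Pou3f2 and Lhx2. Cluster 14 (led by Eomes and Masp1) had Hmx2 in 80.2% and 89.5% and Hmx3 in 57.5% and 62.9%, and cluster 16 (led by C1ql2 and Eomes) added Isl1 and Lhx9. Hmx2 and Hmx3 were also on together in the GABAergic clusters 2, 5, 15 and 23. Cluster 21 (led by the noncoding genes B830012L14Rik and Mir124a-1hg) held 163 SD and 8 SD+RS neurons and had no gene on. Its median depth was only 6886 UMIs, against 22174 and 21684 over all neurons of the libraries. Whether the rule for calling a gene on missed genes at that depth was not tested. Cluster 27 (led by Sox14 and Fam159b, with 51 and 83 neurons) also had no gene on, at a median depth of 19715.5 UMIs.

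**Figure D5:**
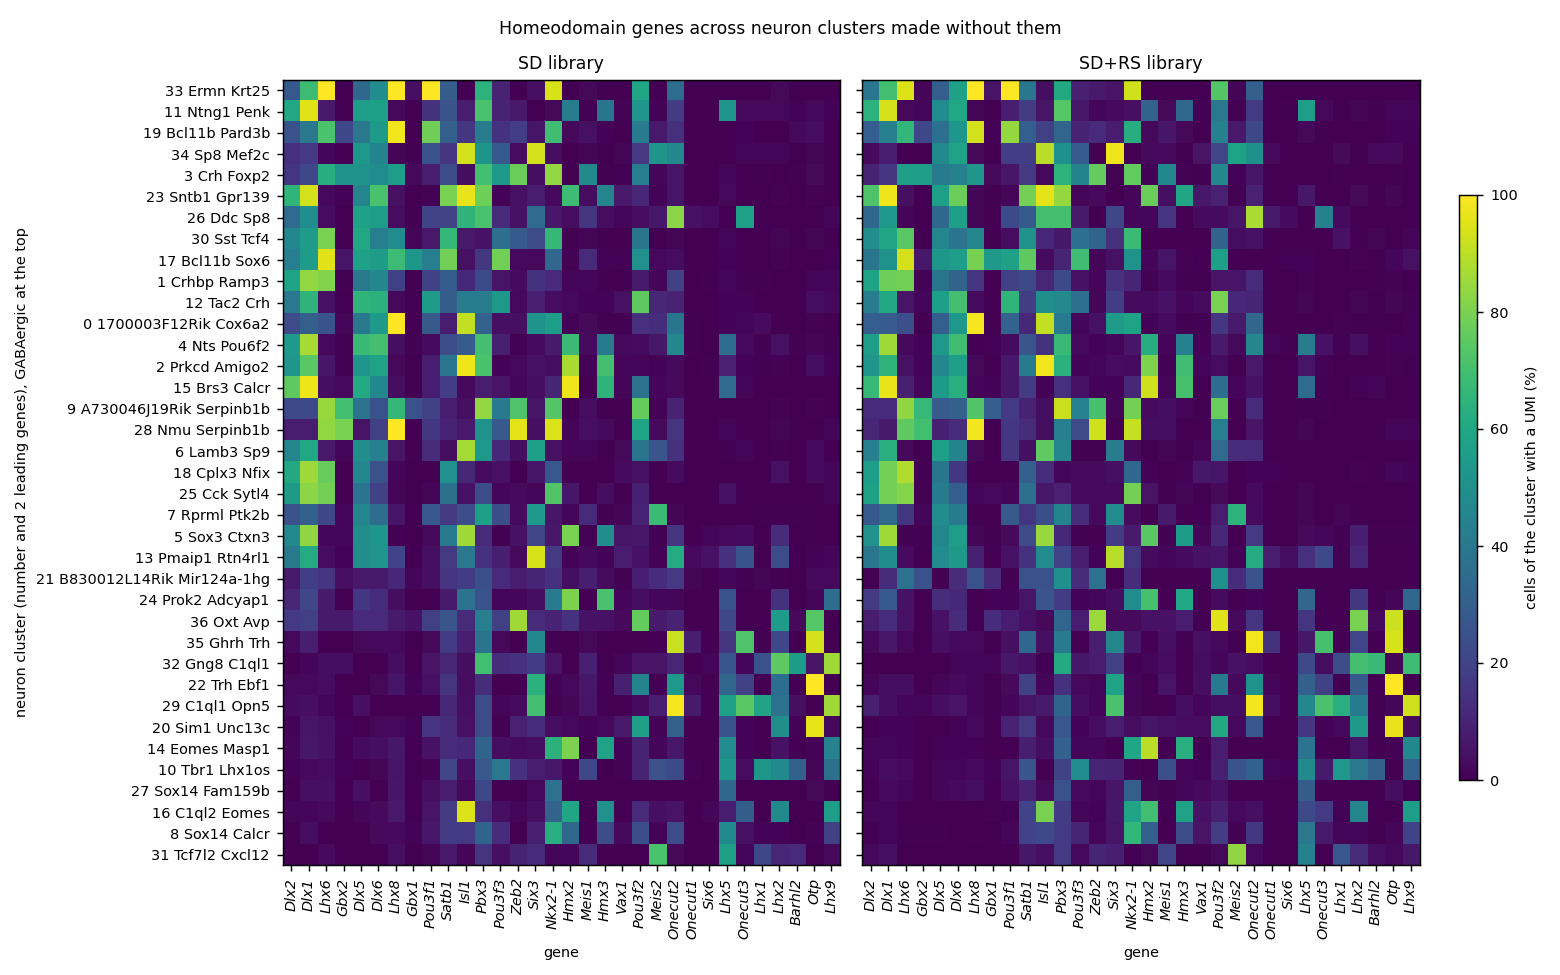
Share of the cells (%) of each neuron cluster with a UMI of each homeodomain gene, in the SD library (left, 37 clusters) and the SD+RS library (right), with clusters ordered from GABAergic at the top to glutamatergic at the bottom and named by number and leading genes. Cluster 21 has only 8 SD+RS neurons. Otp is high in clusters 36, 35, 22 and 20.

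Levels over the clusters were most uneven in the SD library for Barhl2, Gbx1, Otp, Meis2 and Lhx1. The tau index, which is 0 for even levels and 1 for a gene in only 1 cluster, was 0.987 and 0.986 for Barhl2 and 0.986 and 0.982 for Gbx1. It was lowest for Dlx6, at 0.613 and 0.598, and Dlx5, at 0.615 and 0.634. In the SD+RS library Barhl2 and Gbx1 again had the highest values, and Nkx2-2 (0.978) and Six6 (0.977) stood above Otp (0.974). The index covered only the 32 clusters with at least 50 cells in each library. There the highest SD+RS level was 1.44 CPM for Nkx2-2 and 4.48 CPM for Six6, against 508 CPM for Otp. The values of Nkx2-2 and Six6 thus rested on few UMIs. For the 10 genes most uneven in the SD library, the 2 other genes with the highest ratio in holding SD neurons were read again in the SD+RS library. Barhl2 went with Mab21l1 (4.04 and 4.79) and Krt19 (4.98 and 1.65), Gbx1 with 4833423E24Rik (7.72 and 6.02) and Shisa8 (5.69 and 5.82), and Otp with Sim1 (8.26 and 9.79), a partner of Otp in neurosecretory development, beside Oxt. Lhx1 went with Lhx1os (5.24 and 5.80), a noncoding gene that starts on the opposite strand within the Lhx1 window printed above, and with the opsin gene Opn5 (5.06 and 5.11), as did Onecut3 with Opn5 (5.35 and 4.89) and the angiotensin receptor gene Agtr1a (4.35 and 4.63). Gbx2 went with Nr2e1 (3.5 and 3.86) and Zeb2os (3.92 and 4.18), and Zeb2 with Oxt and Zeb2os (5.73 and 5.61), which overlaps it. Meis1 and Six6 went with Gnrh1 and with A930003A15Rik (3.47 and 2.86 for Meis1, 6.46 and 6.30 for Six6). Meis2 went with the haemoglobin genes Hba-a1 (8.19 and −1.08) and Hbb-bs (7.98 and −2.14) in the SD library and not in the SD+RS library, from 182 and 915 UMIs in holding SD neurons. This was not particular to Meis2, since SD neurons with Six3, Dlx5 and Dlx6 held 182, 182 and 183 UMIs of Hba-a1. SD neurons without the gene had Hba-a1 at only 0.075 (Meis2) to 0.11 CPM (Dlx5), so these were largely the same UMIs. The number of neurons that held them was not counted. Whether these UMIs came from blood was not tested.

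Between the libraries the levels of the set were about as close as those of all genes. The median absolute log2 ratio was 0.113 over the 33 genes and 0.115 over all genes tested. Of the 32 genes tested, 0 differed by 1.5-fold or more, while 3.96% of all genes tested did. With called doublets kept, 1 of 33 did (Nkx2-2), against 5.23% of all genes. The median log2 ratio of SD+RS over SD was −0.016 over the 32 genes and −0.024 over all genes tested. Log2 levels of the 33 genes in the libraries had a Pearson correlation of 0.995, as a description over genes of the same cells. The lowest ratios were those of Onecut3, at 5.07 and 3.61 CPM (log2 −0.49, −0.70 to −0.29), Meis2, at 33.2 and 23.7 CPM (−0.49, −0.57 to −0.41), and Six6, at 2.32 and 1.84 CPM (−0.34, −0.63 to −0.037). With neurons thinned to 10000 UMIs, Onecut3 was at only −0.21, outside its counting interval, while Meis2 was at −0.47 and Six6 at −0.50. Six3 (−0.29, −0.35 to −0.23), Pou3f3 (−0.31, −0.43 to −0.18) and Lhx2 (−0.28, −0.42 to −0.14) were also lower with intervals that did not reach 0. The highest were Gbx1, at 2.50 and 3.13 CPM (0.32, 0.068 to 0.58), and Hmx3, at 11.1 and 13.8 CPM (0.32, 0.20 to 0.44). Pou3f1, at 22.6 and 26.9 CPM (0.25, 0.16 to 0.34), was also higher with an interval that did not reach 0, while those of Barhl2 (0.26, −0.025 to 0.56) and Onecut1 (0.26, −0.55 to 1.09) did. The Dlx genes lay between −0.079 (Dlx5) and 0.11 (Dlx2). For Meis2 the share of neurons with a UMI was 9.75% (8.82 to 10.7) and 7.14% (6.37 to 7.97), with 8.06 and 7.77 UMIs per holding neuron. For Six3 the shares were 22.3% and 18.0%, with 6.09 and 6.11 UMIs per holding neuron, so that for both genes the libraries differed more in share than in UMIs per holding neuron. Sleep state cannot be told apart from the pool of mice.

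Read by sex, more of the genes passed 1.5-fold. In Xist-only neurons 3 of 31 did, while 4.04% of all genes did: Meis2 (−0.69), Pou3f3 (−0.68) and Onecut3 (−0.64). In neurons with Y-linked UMIs and no Xist (Y-linked-only) 4 of 30 did, while 4.59% of all genes did: Otp (−0.88), Meis2 (−0.86), Lhx9 (0.82) and Lhx1 (0.61). Meis2 was therefore lower in the SD+RS library in both sets of neurons, from 40.1 to 24.9 CPM in Xist-only neurons and from 30.4 to 16.8 CPM in Y-linked-only neurons. Otp went from 25.2 to 32.5 CPM in Xist-only neurons and from 31.0 to 16.8 CPM in Y-linked-only neurons, with log2 ratios of 0.37 (0.25 to 0.49) in Xist-only neurons and −0.88 (−1.06 to −0.71) in Y-linked-only neurons. Lhx9 went from 7.92 to 5.84 CPM in Xist-only neurons and from 6.96 to 12.3 CPM in Y-linked-only neurons, with −0.44 (−0.67 to −0.20) in Xist-only neurons and 0.82 (0.57 to 1.06) in Y-linked-only neurons. Of the 30 genes with enough UMIs in both sexes, 14 had the same sign in both and 8 had opposite signs with intervals that did not reach 0 (Lhx1, Lhx8, Lhx9, Nkx2-1, Otp, Dlx1, Dlx2 and Dlx6). The same count over all genes was not made, so opposite signs cannot be called particular to this set. Dlx1 had 0.31 (0.22 to 0.41) in Xist-only neurons and −0.24 (−0.35 to −0.14) in Y-linked-only neurons. For these 8 genes the pooled ratio combined opposite signs in unequal numbers of neurons of each sex, and with 1 pool per group the difference was not tested.

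The authors' deposited table of marker genes for both libraries lists 31 of the 33 genes as higher in at least 1 of their clusters, in 26 clusters whose names begin with i and 11 whose names begin with e. It was made from these same cells and is given as a description. The share of all genes that it lists was not counted, so the 31 cannot be set against such a share. In the authors' deposited table Lhx6 is listed in 8 i clusters and 0 e clusters, and Lhx8 also in 8 and 0. The authors' deposited table lists Otp in 2 e clusters and Lhx9 in 3, and neither in an i cluster. Six6 is listed in the authors' deposited table for cluster e1 in 100% of its cells against 0.600% of the others, with Meis1 in 88.2% of its cells against 6.00% of the others. The authors' deposited table also lists Six6 for cluster i18, in 100% of its cells against 0.600% of the others, with Six3 in 94.7% of its cells against 20.7% of the others and Lhx1 in 73.7% of its cells against 3.80% of the others. Gbx1 is listed in the authors' deposited table for cluster i4 in 39.8% of its cells against 1.40% of the others, together with Lhx6 in 95.1% of its cells against 23.4% of the others. Zeb2 and Gbx2 are listed in the authors' deposited table for cluster i13, Zeb2 in 93.8% of its cells against 12.2% of the others and Gbx2 in 68.3% of its cells against 6.10% of the others. Onecut1 and Vax1 were not among the 31.

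Other homeobox genes and the LIM cofactors were read in the same way. Of 60 other homeobox genes, 37 had enough UMIs and 3 stood on the glutamate side, against 8 of the 32 genes above, a set chosen with earlier results of these data known. Emx2 was at 10.1 against 0.0369 CPM (SD) and 7.05 against 0 CPM (SD+RS) on the glutamate side, with Otx1 and with Emx1, which had 0 UMIs in GABAergic neurons of both libraries. Between the libraries 2 of the 37 differed by at least 1.5-fold, while 3.96% of all genes did, and both were lower in the SD+RS library: Six4 (−0.84) and Otx2 (−0.90). Of the 6 LIM cofactor genes, Lmo3 was on the GABA side (−1.46 and −1.49), Lmo2 on the glutamate side (1.25 and 1.44), and Ldb1, Ldb2, Lmo1 and Lmo4 on neither.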

How the data were processed

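The authors deposited UMI counts per gene and cell barcode, with no normalization; per the file headers the matrices come from Cell Ranger 3.0.2, with mm10 and Seurat 4.0.4 named in the submitters' processing notes. The authors also deposited cluster marker tables that give the share of cells with a gene as a fraction, per the file headers, printed here as a percentage. Their p-values over cells were not used. Here, barcodes were kept at 500 genes or more and at most 20% mitochondrial UMIs. Doublets were called per library from simulated pairs (2 per cell, expected rate 6%), which marked 582 cells (5.89%) and 270 (3.5%) and found 62.0% and 55.5% of the simulated ones. Of 4116 and 4283 cells that met the neuron rule, 34 and 10 failed the mitochondrial limit and 349 and 211 were doublets. The SD and SD+RS libraries held 132191585 and 123500649 UMIs. Levels are summed UMIs as CPM, with exact Poisson, Clopper-Pearson or conditional binomial intervals. Ratios needed at least 20 UMIs of a gene in the neurons of each library, and a sum of 0 was set to 3 counts. A pair, link or class called higher needed at least 3 UMIs on the higher side in each library, a condition set after values had been seen. Named pairs were the 15 highest and 8 lowest in the SD library among 410 with at least 20 UMIs expected in both orders. Named links were its 15 highest with at least 50 peptide UMIs, and other named genes the 2 highest with at least 100 UMIs for the 10 most uneven members. Genes named beyond these rules were chosen after their values were seen. Clusters came from 2000 variable genes, 40 components, 20 neighbours and the Leiden method at resolution 1.5 (scanpy 1.11.5, leidenalg 0.10.2), with both libraries together, no correction between them, and with the 33 genes, activity, clock, heat shock, sex-linked, mitochondrial, ribosomal and haemoglobin genes left out. Of the 31054 gene identifiers, 30934 matched GENCODE vM21. The calculation of ratios was tested on simulated data. The alternatives were doublets kept, a stricter neuron rule, each sex alone, equal weight per cell, thinning to 10000 UMIs, a minimum of 50 UMIs, 2 UMIs of a member, other class rules and other cluster settings. The members and gene lists were chosen with earlier results of these data known. Some results on other homeobox genes are not reported here.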

Additional observations from a re-analysis of the deposited data

Results flagged for a closer look

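For 3 genes the ratio of SD+RS over SD differed in sign between the sexes by at least 2-fold. How many of all genes did so was not counted. For Lhx9 the log2 ratio in Y-linked-only neurons minus that in Xist-only neurons was 1.26, with −0.44 (−0.67 to −0.20) in Xist-only neurons and 0.82 (0.57 to 1.06) in Y-linked-only neurons. For Lhx1 it was 1.02, with −0.41 (−0.73 to −0.091) in Xist-only neurons and 0.61 (0.19 to 1.01) in Y-linked-only neurons. For Otp it was −1.25, with 0.37 (0.25 to 0.49) in Xist-only neurons and −0.88 (−1.06 to −0.71) in Y-linked-only neurons. All 3 are genes of the glutamate side. Each sex was 1 pool of unknown size per library, so the difference was not tested. Xist-only neurons were 39.1% of the sex-called SD neurons and 77.9% of the sex-called SD+RS neurons.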

How the results depend on the processing

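The count of genes past 1.5-fold between the libraries was 0, and it was 1 with doublets kept (Nkx2-2, which then passed the minimum of 20 UMIs, at a log2 ratio of −1.15), 3 in Xist-only and 4 in Y-linked-only neurons. It was 0 with 20 Snap25 and Syt1 UMIs, with cells weighted equally, with neurons thinned to 10000 UMIs and with a minimum of 50 UMIs. Every other count stayed within 1.5 times under the alternatives run: genes in at least 10% of neurons 13 to 19, ordered pairs 132 to 150, or 100 within GABAergic and 134 within glutamatergic neurons, GABA-side genes 12 to 13, glutamate-side genes 8 to 10, peptide links 51 to 73, and genes on in a cluster 26 to 29. The links by share of cells and the pairs within a class were chosen after the data had been seen. Of the 33 ratios between libraries, 23 moved by more than their counting interval in Xist-only and 21 in Y-linked-only neurons, 4 with thinning, 2 with the stricter neuron rule and 1 with cells weighted equally. No paired analysis was possible because each group was 1 library, and for the same reason no library could be left out. Genes with few UMIs (Six6, Onecut1, Vax1, Barhl2 and Gbx1) are limited by depth, and a gene without a UMI in a neuron may still be transcribed there.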
